A study of Mus musculus with 18 samples.

Results

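The carboxylesterases described here are 10 mouse liver enzymes of the Ces1, Ces2 and Ces3 subfamilies, namely Ces1c, Ces1d, Ces1e, Ces1f, Ces1g, Ces2a, Ces2c, Ces2e, Ces3a and Ces3b. All probe sets whose gene symbol in the platform annotation is one of these names were taken, which gave 10 of the 45101 probe sets on the array. Of the 10 genes, 7 had a probe set of their own, with 3 probe sets for Ces1d. Ces3a and Ces3b were read by 1 shared probe set and could not be told apart. Ces2c was not analysed here. The members therefore made up 8 of the 9364 genes tested, and all 10 of their probe sets passed the filter on low values.

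Expression had been measured on 18 oligonucleotide arrays, each carrying RNA of 1 liver or tumour sample of male mice, in a study of Tlr4 and the intestinal microbiota in hepatocellular carcinoma. Tlr4 encodes the receptor for bacterial lipopolysaccharide. Antibiotic-treated wild-type (WT) tumours (3 arrays, numbered 28 to 30) came from C3H/HeOuJ mice that drank ampicillin, neomycin and metronidazole at 1 g/l each and vancomycin at 500 mg/l, starting in week 10 and lasting to week 54. Tlr4-mutant tumours (5 arrays, 23 to 27) came from C3H/HeJ mice carrying Tlr4P712H. WT tumours (7 arrays, 16 to 22) came from C3H/HeOuJ mice given no antibiotics. All 3 tumour groups had received the carcinogen diethylnitrosamine at 100 mg/kg in week 12 and the hepatotoxin CCl4 at 0.5 ml/kg in 6 injections between weeks 13 and 23, and were dissected as lesions at 54 weeks of age. Normal liver (3 arrays, 1 to 3) came from WT C3H/HeOuJ mice that were 15 weeks old, so age, carcinogen and tissue all differed between tumours and normal liver. The mutant and WT mice are separate substrains, and the labels name no littermates. Whether each sample of a group is a different animal is not stated in the sources used here. The p-values therefore describe sample-to-sample spread, part of which may be technical.

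Carboxylesterases are serine hydrolases that cleave carboxylic esters and, in some cases, amides and thioesters. In hepatocytes most of them reside in the lumen of the endoplasmic reticulum, where they activate or inactivate ester drugs and environmental toxicants and release fatty acids from stored triacylglycerol and cholesteryl esters. The family has expanded in rodents by tandem duplication, so that several mouse genes correspond to each human one.

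The values are log2 signals per probe set as deposited, so that a difference of 1 is a doubling. Probe sets above log2 4 on at least 3 arrays were kept, and groups were compared with limma, a linear model with moderated variances, whose p-values were adjusted over all 9364 genes by Benjamini-Hochberg. An adjusted p under 0.05 counts as passing. Signals were comparable across arrays, with a median log2 signal between 6.69 and 6.85 over kept probe sets and 14427 to 15275 probe sets above log2 4. The tumour markers Afp and Gpc3 were higher in all 3 tumour groups than in normal liver, with a log2 change of 8.97 ± 0.93 for Afp in WT tumours (SE, limma adjusted p = 7.7e-06). The mean log2 level of 7 hepatocyte markers lay between 14.16 and 14.27 in antibiotic-treated tumours, 14.25 and 14.34 in Tlr4-mutant tumours, 13.54 and 14.26 in WT tumours, and 14.13 and 14.19 in normal liver. WT tumours 17 and 19 stood apart on the second principal component, which held 14.0% of the variance, and had the lowest hepatocyte marker means of all 18 arrays. Among these markers Cps1 had the widest range in WT tumours, 9.35 to 13.00, against 13.39 to 13.41 in normal liver. The lowest WT tumour signals of Alb, Apoa1, Ttr, Fgb, Ahsg and Apoh were 14.48, 14.48, 14.44, 14.03, 14.12 and 13.68. Their normal liver means were 14.58, 14.62, 14.73, 14.07, 13.67 and 14.05. The 15 tumour arrays also differed from the 3 normal liver arrays in controls of RNA quality and labelling. The Gapdh 3' minus 5' control difference was 0.20 to 1.02 in tumours, against 1.37 to 1.61 in normal liver, and the spiked dap control read 1.81 to 2.08 in tumours, against 7.87 to 8.21 in normal liver. In every tumour comparison with normal liver, labelling, RNA quality, age, carcinogen and tissue cannot be told apart. In these bulk samples, fewer cells of a type and less RNA per cell cannot be told apart either.

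Carboxylesterase levels were compared first between WT tumours and normal liver. Ces2a, Ces1e, Ces1d and Ces1c fell in WT tumours and Ces2e rose, so that 5 of 8 genes passed a limma adjusted p of 0.05, where 39.4% of all genes tested passed it. By direction, 4 of 8 fell and 1 of 8 rose, against 20.1% and 19.3% of all genes. The other 3 genes, Ces1f, Ces1g and Ces3a/Ces3b, had negative changes that did not pass. For 7 of 8 genes every WT tumour lay below every normal liver (19.8% of all genes), and for Ces2e every WT tumour lay above (18.9% of all genes). The median change of the 8 genes was -2.05 on the log2 scale, beside -0.0015 over all 9364 genes.

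**Figure D1:**
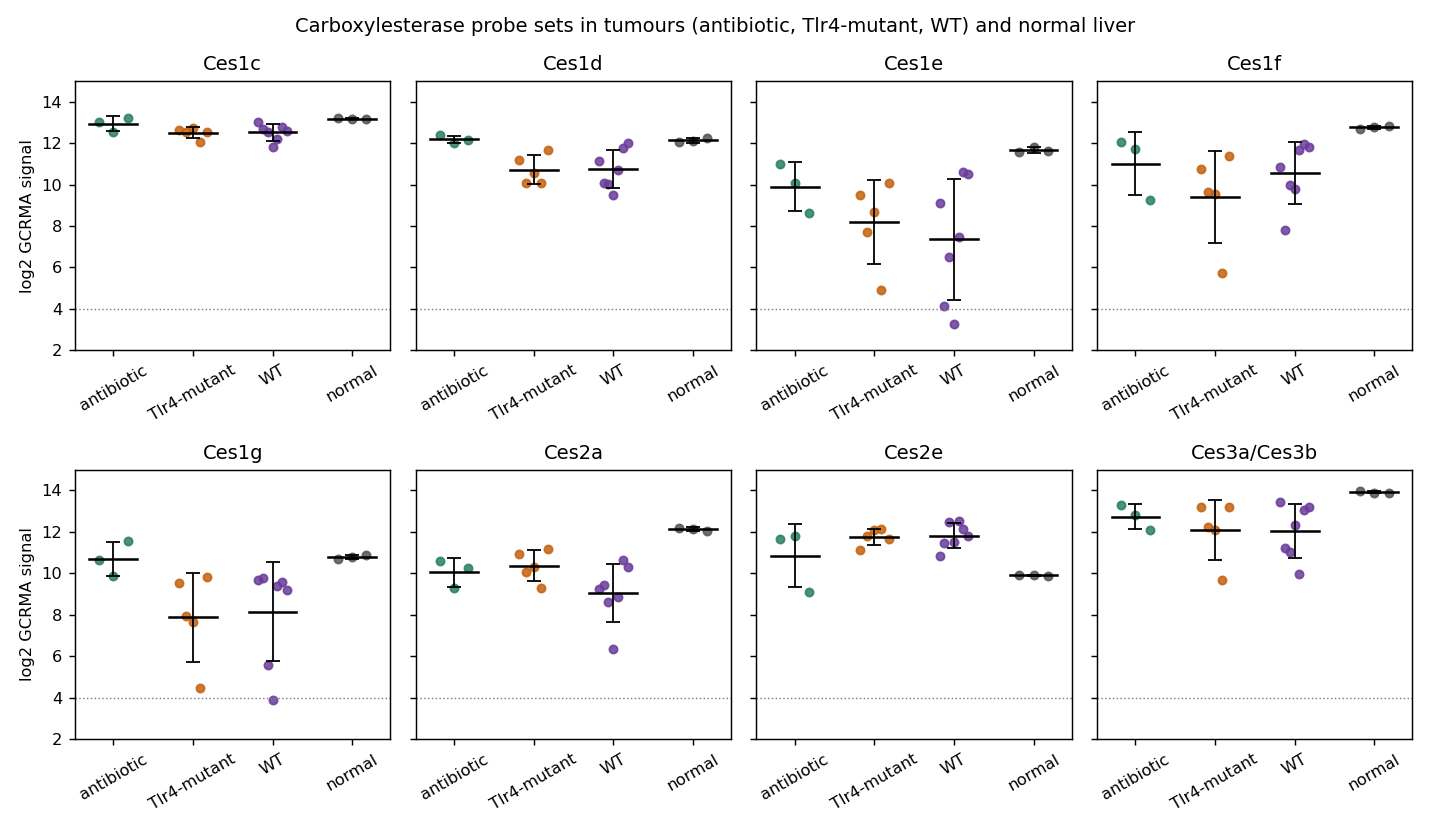
Log2 GCRMA signal (y axis) of the 8 carboxylesterase features on each array, with antibiotic-treated WT, Tlr4-mutant and WT tumours to the left of normal liver; points are arrays, horizontal bars are means and whiskers are 1 SD (n = 3, 5, 7 and 3), and the dotted line marks log2 4. The 3 normal livers sit close together in every panel, while Ces1e reaches from 3.28 to 10.98 among tumours and Ces2e is the panel in which most tumours lie above normal liver; levels are not comparable between panels, which show different probe sets.

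Ces1d, also known as triacylglycerol hydrolase, mobilises stored triacylglycerol for very low density lipoprotein (VLDL) assembly. Its probe set of highest mean read 12.37, 12.02 and 12.14 in antibiotic-treated tumours 28, 29 and 30. It read 11.19, 10.07, 10.56, 10.09 and 11.67 in Tlr4-mutant tumours 23 to 27. In WT tumours the lowest, median and highest signals were 9.52, 10.70 and 12.01, and in normal livers the 3 signals were 12.04, 12.11 and 12.25. The antibiotic-treated tumours thus spanned the range of normal liver, and every one of them lay above every WT and every Tlr4-mutant tumour. Ces1d was lower in WT tumours than in normal liver by a log2 change of -1.38 ± 0.47 (SE, limma adjusted p = 0.0287). Its change in Tlr4-mutant tumours, -1.42 ± 0.50, missed the threshold (limma adjusted p = 0.0501), and in antibiotic-treated tumours the difference from normal liver was 0.045 ± 0.56 (limma adjusted p = 0.966).

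The other Ces1d probe sets gave the same order of group means for tumours. In both, antibiotic-treated and WT tumours overlapped: the lowest antibiotic-treated tumours read 11.67 and 10.37, and the highest WT tumours 11.83 and 10.44. One read 11.90 ± 0.24 in antibiotic-treated, 10.65 ± 0.46 in Tlr4-mutant and 10.85 ± 0.68 in WT tumours, against 12.13 ± 0.16 in normal liver (SD). The second read 10.50 ± 0.14, 9.52 ± 0.45 and 9.72 ± 0.60 in those tumour groups in turn, against 10.56 ± 0.28 in normal liver. Both were lower in WT tumours than in normal liver, by log2 changes of -1.28 and -0.84 (limma adjusted p = 0.00756 and 0.0401 over 15155 probe sets). Over the same probe sets, that of highest mean passed in Tlr4-mutant tumours against normal liver (limma adjusted p = 0.0470). Both others also passed there, with log2 changes of -1.48 and -1.04 (limma adjusted p = 0.00789 and 0.0304). The names of both mark them as probe sets that may also read other transcripts.

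Ces1f is a second triacylglycerol hydrolase of hepatocytes. Its signal was 12.05, 11.73 and 9.27 in antibiotic-treated tumours 28 to 30 and 10.73, 9.65, 9.54, 5.71 and 11.38 in Tlr4-mutant tumours 23 to 27. WT tumours ranged from 7.81 to 11.97 with a median of 10.84, against 12.68, 12.78 and 12.81 in normal livers. All 15 tumours lay below all 3 normal livers. Ces1f fell in Tlr4-mutant tumours, with a log2 change of -3.36 ± 1.11 (SE; limma adjusted p = 0.0394). Without Tlr4-mutant tumour 26, the lowest array, that change was -2.44 and did not pass (limma adjusted p = 0.0712), nor did it pass without Tlr4-mutant tumour 24 or 25 or any 1 normal liver (adjusted p up to 0.105). The changes in WT and antibiotic-treated tumours were -2.21 ± 1.05 and -1.74 ± 1.24, and neither passed (limma adjusted p = 0.104 and 0.347). The WT change passed when Tlr4-mutant tumour 26 was left out of the shared spread (limma adjusted p = 0.0393). This probe set, too, is of a kind that may read related transcripts.

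Ces1g acts in hepatic lipid handling, and mice lacking it have been described with fatty liver and raised blood lipids. It read 10.66, 9.89 and 11.55 in antibiotic-treated tumours 28 to 30, and 9.52, 7.96, 7.62, 4.44 and 9.84 in Tlr4-mutant tumours 23 to 27. WT tumours had a lowest, median and highest signal of 3.89, 9.40 and 9.75, against 10.68, 10.81 and 10.87 in normal livers. Every Tlr4-mutant and WT tumour lay below every normal liver, while the antibiotic-treated tumours lay on both sides of it. WT tumours 18 and 19 and Tlr4-mutant tumour 26 were far lower than the rest. The changes against normal liver were -0.085 ± 1.49 in antibiotic-treated, -2.91 ± 1.34 in Tlr4-mutant and -2.64 ± 1.26 in WT tumours (SE), and none passed (limma adjusted p = 0.977, 0.125 and 0.107).

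Ces1e, known as egasyn, binds β-glucuronidase (Gusb) and retains it in the endoplasmic reticulum. Its signal was 10.98, 10.06 and 8.63 in antibiotic-treated tumours 28 to 30 and 9.50, 7.73, 8.67, 4.91 and 10.07 in Tlr4-mutant tumours 23 to 27. The lowest, median and highest WT tumours read 3.28, 7.46 and 10.60, against 11.56, 11.84 and 11.63 in normal livers. Every tumour of each group was below every normal liver, and WT tumours 17 and 19, at 4.14 and 3.28, were the lowest. Ces1e fell in WT tumours, with a log2 change of -4.31 ± 1.44 (SE; limma adjusted p = 0.0264), the largest mean change among the 8 genes. The change was -2.85 with WT tumours 17 and 19 both left out and did not pass (limma adjusted p = 0.0557). In Tlr4-mutant and antibiotic-treated tumours it was -3.50 ± 1.52 and -1.79 ± 1.70, and neither passed (limma adjusted p = 0.106 and 0.492). Gusb itself had a log2 change of 0.52 ± 0.22 in WT tumours that did not pass (limma adjusted p = 0.0663) and rose in Tlr4-mutant tumours, by 0.79 ± 0.23 (limma adjusted p = 0.0232). The Gusb change in WT tumours passed without WT tumour 17 or antibiotic-treated tumour 30 (limma adjusted p = 0.0136 and 0.0376).

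Ces1c lacks the retention signal of its relatives and is secreted into blood plasma. It varied least, with 13.04, 12.53 and 13.23 in antibiotic-treated tumours 28 to 30, and 12.65, 12.56, 12.72, 12.07 and 12.53 in Tlr4-mutant tumours 23 to 27. WT tumours ranged from 11.82 to 13.01 with a median of 12.60, against 13.20, 13.16 and 13.15 in normal livers. Tlr4-mutant and WT tumours were all below normal liver, and antibiotic-treated tumours overlapped it. Ces1c fell in WT and in Tlr4-mutant tumours, with log2 changes of -0.65 ± 0.22 and -0.66 ± 0.23 (SE; limma adjusted p = 0.0270 and 0.0485). Its change in antibiotic-treated tumours was -0.24 ± 0.26 (limma adjusted p = 0.550). The calls of Ces1c, Ces1d and Ces1e in WT tumours were each lost when any 1 of the 3 normal livers was left out, with limma adjusted p of at most 0.0798, 0.0900 and 0.0798. That of Ces1d was also lost without WT tumour 18 (0.0501).

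Promoter sequences are shown for Ces1c, Ces1e and Ces1g because the bases before their starts hold a run in common. They are the 250 bases before the gene start from RefSeq on assembly GRCm38.p6, a C57BL/6J reference and not the C3H substrains used here. Entries were found for 7 of 10 members, and Ces1d, Ces1f and Ces3a had none. Capitals mark TTATGTAA, the single run of 8 bases, read on either strand, that all 3 promoters share. They lie on the minus strand at chr8:93131284-93131533, chr8:93229620-93229869 and chr8:93337210-93337459, in the order printed.
Ces1c: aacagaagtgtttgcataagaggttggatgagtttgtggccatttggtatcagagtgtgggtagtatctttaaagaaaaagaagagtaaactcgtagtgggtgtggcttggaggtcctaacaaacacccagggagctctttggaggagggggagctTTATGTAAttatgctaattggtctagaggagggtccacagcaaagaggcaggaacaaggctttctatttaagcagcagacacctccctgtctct
Ces1e: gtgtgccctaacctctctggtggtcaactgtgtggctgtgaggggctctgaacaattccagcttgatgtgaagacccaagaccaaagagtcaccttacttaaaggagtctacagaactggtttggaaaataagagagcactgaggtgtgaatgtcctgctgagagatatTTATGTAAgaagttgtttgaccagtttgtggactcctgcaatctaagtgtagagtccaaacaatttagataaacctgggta
Ces1g: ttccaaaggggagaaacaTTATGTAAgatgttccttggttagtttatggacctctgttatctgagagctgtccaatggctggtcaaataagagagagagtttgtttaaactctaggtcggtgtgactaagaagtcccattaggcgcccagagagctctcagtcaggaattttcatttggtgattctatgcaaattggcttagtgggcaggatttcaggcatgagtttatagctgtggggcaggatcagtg
The run lay 94 to 87 bases before the start in Ces1c, 81 to 74 in Ces1e and 232 to 225 in Ces1g. TTATGTAA is a known binding sequence of C/EBP and PAR bZIP factors, which are abundant in hepatocytes, and 0.819% of 32851 promoters of this length held it. It was not in the windows of the other 4 members with an entry. This is a description of letters and not of binding. Cebpa, which encodes C/EBPα, fell in WT tumours, with a log2 change of -1.19 ± 0.29 (SE; limma adjusted p = 0.00525). A link between Cebpa and the levels of Ces1c, Ces1e and Ces1g was not tested.

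Ces2a and Ces2e belong to the subfamily of human CES2, whose enzymes favour esters with a small acyl group, and they moved in opposite directions. Ces2a read 10.61, 9.27 and 10.24 in antibiotic-treated tumours 28 to 30 and 10.92, 10.07, 10.29, 9.30 and 11.20 in Tlr4-mutant tumours 23 to 27. In WT tumours its lowest, median and highest signals were 6.34, 9.25 and 10.64, against 12.20, 12.15 and 12.03 in normal livers. All 15 tumours lay below normal liver by more than the 3 normal livers differed among themselves. Its log2 change in WT tumours, -3.07 ± 0.67 (SE), had the smallest limma adjusted p of the 8 genes, 0.00254, and passed under every alternative run at the 0.05 threshold.

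In Tlr4-mutant tumours the Ces2a change was -1.77 ± 0.71 and in antibiotic-treated tumours -2.09 ± 0.79, and neither passed (SE, limma adjusted p = 0.0804 and 0.0809). Both passed without WT tumour 19, which lowers the shared spread (limma adjusted p = 0.0160 and 0.0174). From low to high, the Ces2a means were 9.06 in WT, 10.04 in antibiotic-treated and 10.36 in Tlr4-mutant tumours, against 12.13 in normal liver. No 2 neighbours in that order differed by the test.

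Ces2e, a hydrolase of pyrethroid esters and other foreign compounds, was the member that rose. Its signal was 11.65, 11.79 and 9.11 in antibiotic-treated tumours 28 to 30 and 11.15, 11.82, 12.08, 12.12 and 11.66 in Tlr4-mutant tumours 23 to 27. WT tumours ranged from 10.85 to 12.52 with a median of 11.82, against 9.90, 9.93 and 9.89 in normal livers. Antibiotic-treated tumour 30 was below normal liver, and the other 14 tumours were above it. Ces2e rose in WT and in Tlr4-mutant tumours, with log2 changes of 1.91 ± 0.47 and 1.86 ± 0.50 (SE; limma adjusted p = 0.00524 and 0.0147). The WT call passed under every alternative at the 0.05 threshold, and the Tlr4-mutant call was lost without normal liver 1 or 3 (limma adjusted p = 0.053 and 0.050). In antibiotic-treated tumours the change was 0.94 ± 0.56 and did not pass (limma adjusted p = 0.252). Without antibiotic-treated tumour 30 it was 1.81 and passed (limma adjusted p = 0.010).

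The promoters of Ces2a and Ces2e are shown because these members of 1 subfamily moved in opposite directions in WT tumours. They lie on the plus strand of GRCm38.p6 at chr8:104733753-104734002 and chr8:104926010-104926259, in the order printed, and capitals mark every run of at least 8 bases, on either strand, that both hold.
Ces2a: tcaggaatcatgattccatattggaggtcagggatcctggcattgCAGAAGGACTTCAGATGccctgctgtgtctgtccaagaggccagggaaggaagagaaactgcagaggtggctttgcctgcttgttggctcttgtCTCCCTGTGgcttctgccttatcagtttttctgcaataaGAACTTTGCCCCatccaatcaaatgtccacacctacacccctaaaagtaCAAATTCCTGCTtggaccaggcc
Ces2e: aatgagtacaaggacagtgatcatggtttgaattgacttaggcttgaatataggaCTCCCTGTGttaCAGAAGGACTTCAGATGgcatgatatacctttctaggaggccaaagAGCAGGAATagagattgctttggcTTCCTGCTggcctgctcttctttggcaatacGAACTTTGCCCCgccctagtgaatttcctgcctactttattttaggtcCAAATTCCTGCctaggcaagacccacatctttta
The longest shared run, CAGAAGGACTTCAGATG, has 17 bases and was found in 2 of 32851 promoters, those of Ces2a and Ces2e themselves. It lay 205 to 189 bases before the start of Ces2a and 183 to 167 before that of Ces2e. The run GAACTTTGCCCC lay 72 to 61 bases before Ces2a and 82 to 71 before Ces2e, and 3 promoters in all held it. No run of 8 bases was shared by Ces2a, Ces2e and Ces2c together.

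Known motifs were searched on both strands of the 7 promoters, and none of their letter strings contains another. TATAAA was in Ces1g and Ces3b (12.4% of all promoters), CCAAT in 5 of the 7 (33.8%), the nuclear receptor half-site AGGTCA in Ces2a (14.0%), the HNF1 half-site GTTAAT in Ces3b (6.43%), and the HNF4 core CAAAGTCCA in none (0.384%). Identity between promoters was 48.5% to 67.0% within a subfamily (6 pairs) and 46.2% to 53.6% between subfamilies (15 pairs).

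Ces3a and Ces3b encode carboxylesterases of the liver endoplasmic reticulum, read here by 1 probe set. Their joint signal was 13.29, 12.83 and 12.09 in antibiotic-treated tumours 28 to 30 and 13.22, 12.23, 12.09, 9.70 and 13.19 in Tlr4-mutant tumours 23 to 27. The lowest, median and highest WT tumours read 9.96, 12.33 and 13.42, against 13.98, 13.90 and 13.88 in normal livers. All 15 tumours lay below all 3 normal livers. The changes were -1.18 ± 0.90 in antibiotic-treated, -1.84 ± 0.80 in Tlr4-mutant and -1.89 ± 0.76 in WT tumours (SE), and none passed (limma adjusted p = 0.380, 0.108 and 0.0580). The change in WT tumours passed without WT tumour 16, 21 or 22 or without Tlr4-mutant tumour 26 (limma adjusted p between 0.0264 and 0.0463).

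**Figure D2:**
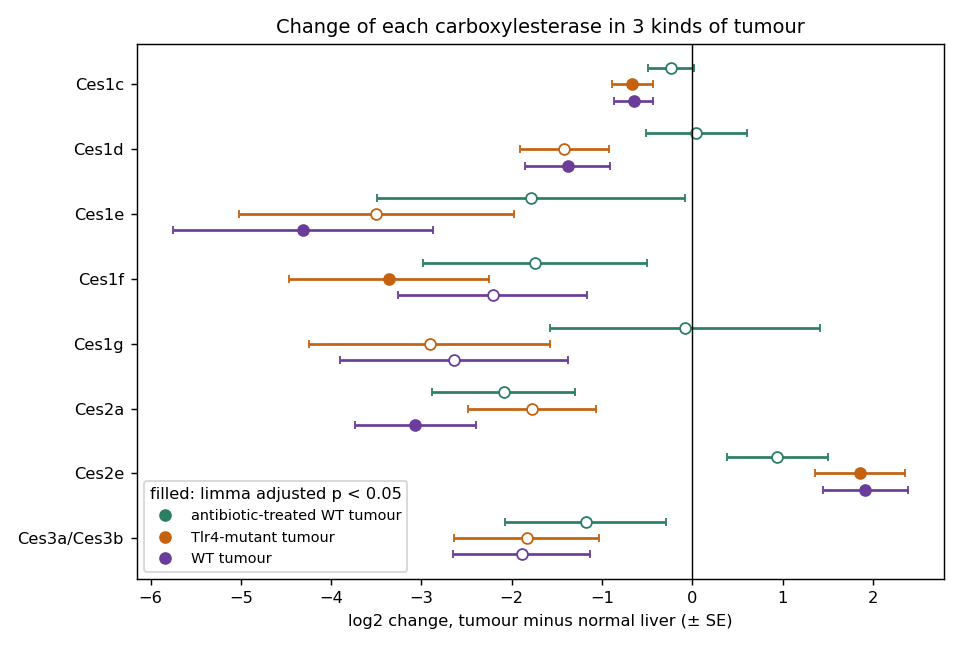
Log2 change of each carboxylesterase against normal liver (x axis, tumour minus normal liver, with SE bars) in antibiotic-treated WT, Tlr4-mutant and WT tumours, n = 3, 5 and 7 against 3; filled points passed a limma adjusted p of 0.05. Ces2e lies to the right of 0 in all 3 tumour groups, Ces1d and Ces1g lie near 0 in antibiotic-treated tumours, and most other points lie to the left.

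Tlr4-mutant tumours were compared with normal liver in the same fit, which shares the 3 normal livers with the WT comparison. Ces1c and Ces1f fell and Ces2e rose, which is 3 of 8 genes called, where 22.6% of all genes passed. Lower calls made up 2 of 8, beside 10.5% of all genes, and higher calls 1 of 8, beside 12.1%. Every Tlr4-mutant tumour lay below every normal liver for 7 of 8 genes (18.8% of all genes) and above for Ces2e (20.5%). The median change was -1.80, beside 0.023 over all genes. Ces1c was near the threshold: its call was lost on leaving out any 1 of 14 arrays, with a limma adjusted p of at most 0.127. Ces1d passed on leaving out any 1 of 7 arrays, WT tumours 17, 18, 19, 21 and 22 and Tlr4-mutant tumours 23 and 27 (limma adjusted p from 0.0256 to 0.0494). Tested over 15155 probe sets instead of genes, all 3 Ces1d probe sets passed (limma adjusted p between 0.00789 and 0.0470).

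Antibiotic-treated tumours against normal liver gave no carboxylesterase call by limma, where 15.8% of all genes passed, and 1 of 8, Ces2a, had an unadjusted p below 0.05 (32.3% of all genes). Every antibiotic-treated tumour lay below every normal liver for 4 of 8 genes, Ces1e, Ces1f, Ces2a and Ces3a/Ces3b (22.3% of all genes), and for no gene did all lie above (20.4%). The median change was -0.71, beside 0.0058 over all genes. This group has 3 arrays against 3, and the standard errors of 0.26 to 1.70 across members limit what could be called.

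Tumours were then compared with tumours. Tlr4-mutant and WT tumours also differ in substrain, C3H/HeJ and C3H/HeOuJ, so the mutation and the substrain cannot be told apart. Between Tlr4-mutant and WT tumours no carboxylesterase passed by limma (0.278% of all genes did), 1 of 8 had an unadjusted p below 0.05 (16.7%), and the groups overlapped for all 8, while 0.737% of all genes lay apart below and 0.886% above. That gene was Ces2a, at 10.36 ± 0.74 in Tlr4-mutant and 9.06 ± 1.41 in WT tumours (SD), a log2 difference of 1.29 ± 0.57 (SE, limma unadjusted p = 0.0366, adjusted p = 0.270). The other differences ran from -1.15 for Ces1f to 0.81 for Ces1e, with standard errors up to 1.22. The Ces1e difference was -0.65 with WT tumours 17 and 19 both left out.

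Between antibiotic-treated and WT tumours no member passed by limma either (0.0854% of all genes did), and 1 of 8, Ces1d, had an unadjusted p below 0.05 (15.5%). Ces1d averaged 12.18 ± 0.18 in antibiotic-treated and 10.75 ± 0.94 in WT tumours (SD), a log2 difference of 1.42 ± 0.47 (SE, limma unadjusted p = 0.00775, adjusted p = 0.199). All 3 Ces1d probe sets had positive differences, 1.42, 1.04 and 0.78, with limma adjusted p of 0.146, 0.142 and 0.224 over 15155 probe sets. Ces1g averaged 10.70 ± 0.83 in antibiotic-treated and 8.15 ± 2.39 in WT tumours, a difference of 2.55 ± 1.26 (limma adjusted p = 0.345). For Ces1d and Ces1g every antibiotic-treated tumour lay above every WT tumour, which 1.82% of all genes showed. For Ces1d this held for its probe set of highest mean, while antibiotic-treated and WT tumours overlapped in both other Ces1d probe sets. The median difference of the 8 genes was 0.84, beside 0.019 over all genes, and Ces2e was the 1 gene with a negative difference, -0.97 ± 0.47 (limma adjusted p = 0.330). Without antibiotic-treated tumour 30 that difference was -0.10.

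Tlr4-mutant tumours set against antibiotic-treated tumours gave the same pair of genes apart. No member passed by limma (0.246% of all genes did), and 1 of 8, Ces1d, had an unadjusted p below 0.05 (10.3%). Ces1d differed by -1.46 ± 0.50 (SE, limma unadjusted p = 0.00939, adjusted p = 0.315) and Ces1g by -2.83 ± 1.34 (limma adjusted p = 0.487), and for both every Tlr4-mutant tumour lay below every antibiotic-treated tumour, as for 2.03% of all genes. This comparison and the preceding one share the antibiotic-treated tumours, so they are not separate evidence.

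**Figure D3:**
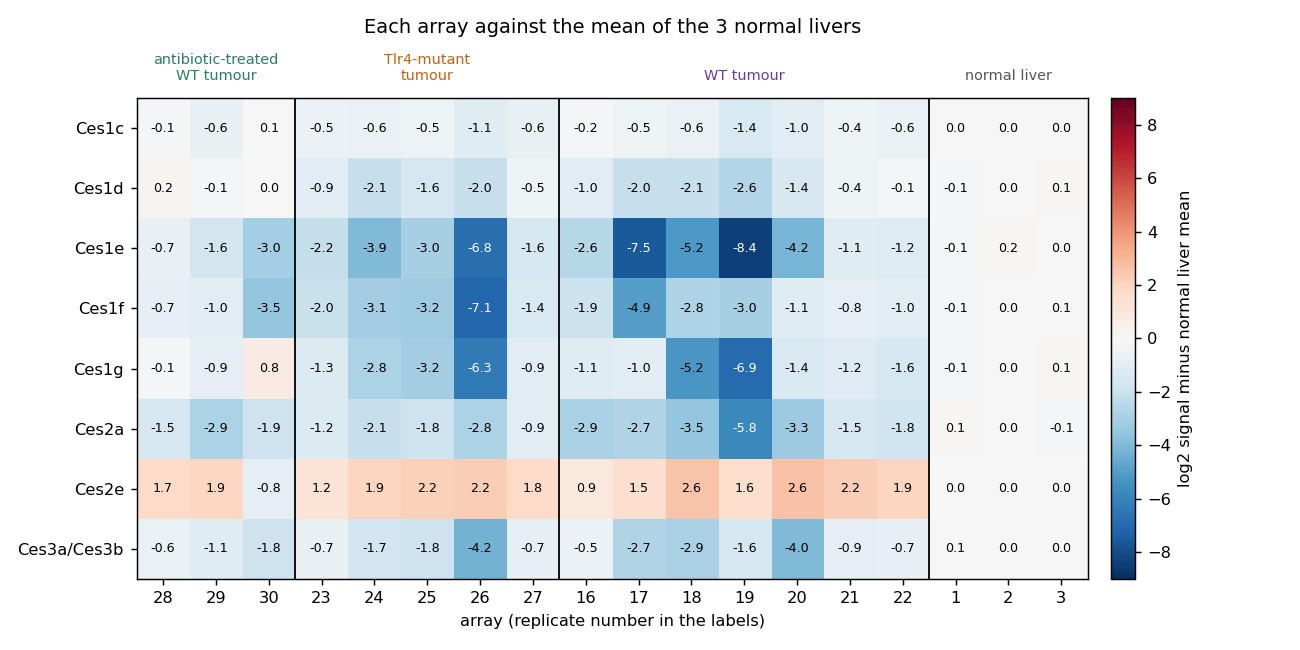
Log2 signal of each carboxylesterase (rows) on each array (columns, numbered as in the labels) minus the mean of the 3 normal livers, in colour from blue (below normal liver) to red (above it), with antibiotic-treated WT, Tlr4-mutant and WT tumours left of normal liver. WT tumour 19 and Tlr4-mutant tumour 26 form the darkest blue columns, WT tumours 21 and 22 and Tlr4-mutant tumour 27 are pale, and the Ces2e row is red except in antibiotic-treated tumour 30.

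Tumours differed from one another far more than normal livers did. Across 15 tumours the highest signal exceeded the lowest 207-fold for Ces1e, 202-fold for Ces1g, 81.1-fold for Ces1f and 28.9-fold for Ces2a. The ratios were smaller for Ces3a/Ces3b (13.2), Ces2e (10.6), Ces1d (7.24) and Ces1c (2.66). Among the 3 normal livers the same ratio was 1.03 to 1.21 for the 8 genes. Such a ratio grows with the number of arrays, and the 15 tumours pool 3 groups, so the ratios of tumours and normal livers are not on an equal footing. The SD within WT tumours alone also exceeded that of normal livers for each of the 8 genes, being 0.39 against 0.023 for Ces1c. The SD of Ces1e over tumours lay at the 99.7th percentile of all genes tested and that of Ces1c at the 55.0th. Several of the lowest signals were near or below log2 4, where the array has little signal above background, so the ratios of Ces1e and Ces1g have that limit.

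The low values were not spread evenly over arrays, as the plot of deviations by array shows. WT tumour 19 was the lowest of 15 tumours for 5 of 8 genes, Tlr4-mutant tumour 26 for 2 and antibiotic-treated tumour 30 for 1, Ces2e. WT tumour 19 also had the lowest mean of the 7 hepatocyte markers, 13.54, whereas Tlr4-mutant tumour 26, with Ces1e at 4.91, Ces1f at 5.71 and Ces1g at 4.44, had a mean of 14.25, above all 3 normal livers. The hepatocyte marker mean includes Cps1, which reached down to 9.35 in WT tumours, while the other markers stayed at 13.68 or above there. The part of hepatocyte content in the Ces values of WT tumours 17 and 19 was not tested.

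Across the 15 tumours 28 pairs of members were correlated, with two-sided permutation p-values adjusted over the pairs. By Pearson's r, 17 of 28 pairs passed, 15 with a positive and 2 with a negative coefficient, and by Spearman's rho 5 of 28 passed. The share of all gene pairs that would pass was not computed, so these counts have no background beside them. The 3 tumour groups were pooled, so differences in level between groups also enter the coefficients and p-values. The highest was Ces1d with Ces1e (r = 0.88, rho = 0.82, permutation adjusted p = 0.00168 and 0.00392), which was 0.82 without the 2 arrays farthest from the median Ces1d and 0.96 within the 7 WT tumours. Ces1d with Ces1g followed (r = 0.79, rho = 0.82, permutation adjusted p = 0.00224 and 0.00392), with 0.71 without the 2 farthest arrays and 0.70 within WT tumours. The other 3 pairs that passed by both measures joined Ces1e with Ces2a, Ces1f and Ces3a/Ces3b. Ces1f with Ces3a/Ces3b passed by r alone (r = 0.65, rho = 0.63, permutation adjusted p = 0.0325 and 0.0674). Its r was 0.29 without the 2 arrays farthest from the median Ces1f.

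Ces2e was the exception in the family over the pooled tumours. Its coefficients with the other 7 genes ran from -0.57 with Ces1c to 0.10 with Ces1f. Those with Ces1c (r = -0.57, rho = -0.44) and Ces1g (r = -0.46, rho = -0.51) had permutation adjusted p of 0.0325 and 0.0492 by r but 0.144 and 0.107 by rho. Within the 7 WT tumours r was -0.32 with Ces1c, -0.14 with Ces1g and -0.61 with Ces3a/Ces3b. It was 0.0058 with Ces1d, 0.10 with Ces2a, 0.12 with Ces1e and 0.34 with Ces1f, so a negative relation to most members was not seen within that group. The arrays share a platform and 2 of them, WT tumours 17 and 19, stood apart. Without both, 13 of 28 pairs passed by r, 11 positive and 2 negative.

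**Figure D4:**
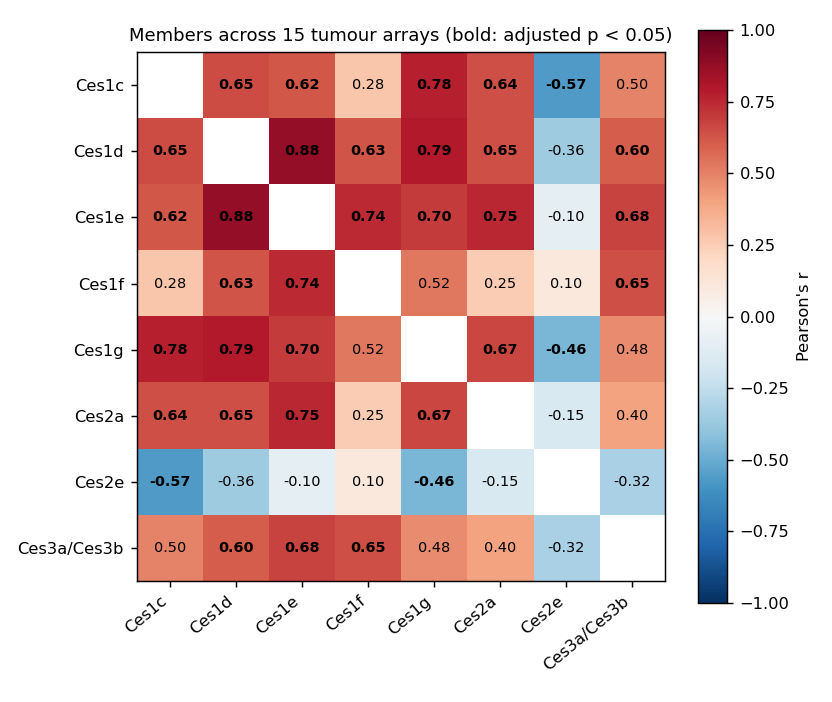
Pearson's r between each pair of the 8 carboxylesterases over 15 tumour arrays (colour from -1, blue, to 1, red); bold values had a permutation adjusted p under 0.05. Red fills the block of Ces1 genes and Ces2a, with 0.88 for Ces1d and Ces1e, and blue fills most of the row and column of Ces2e, down to -0.57.

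Outside the family, the genes whose levels followed each member most closely over the 15 tumours are named as a description of likeness, with Pearson's r and no test. For Ces1e they were Ugt2b1, a glucuronosyltransferase (0.96), and Car3, a carbonic anhydrase (0.94). For Ces2a they were Cyp2d22, a cytochrome P450 (0.94), and Haao, an enzyme of tryptophan breakdown (0.94). For Ces2e they were Rasgrp2, a Ras family exchange factor (0.94), and Apoc2, the cofactor of lipoprotein lipase (0.94). Ces1d was nearest to Cnmd (0.93) and Pcyt1a of phosphatidylcholine synthesis (0.92), and Ces3a/Ces3b to Cyp7b1, an oxysterol hydroxylase (0.92), and Ugt3a2 (0.92). Ces1c was nearest to Rnf139 (0.91) and BC052688 (0.90), and Ces1g to Galns (0.87) and the asialoglycoprotein receptor subunit Asgr2 (0.86). Ces1f had the least close neighbours, malic enzyme Me1 (0.77) and the efflux transporter Abcg2 (0.75), and r was 0.61 and 0.50 for them without the 2 arrays farthest from its median. The Ces2e coefficients were 0.76 and 0.69 without its 2 farthest arrays.

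Of 6 other carboxylesterase genes on the array, Ces1h, Ces2f, Ces4a and Ces5a stayed below log2 4 throughout and were not tested. Ces2g averaged 8.99 ± 0.16 in Tlr4-mutant and 8.72 ± 0.18 in WT tumours, against 8.21 ± 0.12 in normal liver (SD). It rose in Tlr4-mutant tumours, by a log2 change of 0.78 ± 0.24 (SE; limma adjusted p = 0.0275), a call lost without any 1 normal liver or Tlr4-mutant tumour 24 or 26 (adjusted p at most 0.0944), and its change in WT tumours, 0.51 ± 0.23, did not pass (limma adjusted p = 0.0813). The WT change passed without antibiotic-treated tumour 28 or 30 (limma adjusted p = 0.0236 and 0.0143). Ces2b read near background, at 3.23 ± 0.47 in Tlr4-mutant tumours, against 4.45 ± 0.54 in normal liver. It was lower in Tlr4-mutant tumours at least 1.37-fold (limma adjusted p = 0.0159), a call lost without normal liver 1 (0.106). In antibiotic-treated tumours Ces2b read 2.99 ± 0.44 (SD) and was also at least 1.37-fold lower than in normal liver (limma adjusted p = 0.0164), a call lost without normal liver 1 (0.0853) or antibiotic-treated tumour 30 (0.0569). In WT tumours the log2 change of Ces2b, -0.79 ± 0.32 (SE), did not pass (limma adjusted p = 0.0573), but passed without WT tumour 21 or 22 or Tlr4-mutant tumour 25 and after quantile normalization or centring (limma adjusted p between 0.0343 and 0.0483).

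Other genes of ester and lipid metabolism were read in the same WT tumour and normal liver arrays, from hand-written lists. Of 10 other ester and epoxide hydrolases tested, 1 rose and 4 fell in WT tumours, where 19.3% of all genes tested rose and 20.1% fell. The lactonase Pon2 rose, with a log2 change of 0.77 ± 0.17 (SE; limma adjusted p = 0.00287). The soluble epoxide hydrolase Ephx2 and the valacyclovir hydrolase Bphl fell, with log2 changes of -1.25 ± 0.28 and -0.98 ± 0.25 (limma adjusted p = 0.00268 and 0.00681). The list's median change was -0.57.

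Of 17 tested genes of neutral lipid hydrolysis and VLDL assembly, 4 rose and 3 fell in WT tumours, shares near the 19.3% and 20.1% of all genes tested, with a median of -0.13. The lipid droplet protein Pnpla3 and the VLDL lipidation factor Tm6sf2 rose, with log2 changes of 3.56 ± 0.95 and 1.15 ± 0.22 (SE; limma adjusted p = 0.00825 and 0.00122). Cideb, which acts in VLDL lipidation, fell, with a change of -0.86 ± 0.14 (limma adjusted p = 0.000344). Dgat2, an enzyme of the last step of triacylglycerol synthesis, also fell, with a change of -0.76 ± 0.21 (limma adjusted p = 0.0114), and this call was lost without normal liver 2 (0.0576).

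Targets of the nuclear receptors CAR and PXR, which respond to foreign compounds and induce several carboxylesterases, gave 1 higher and 7 lower calls among 12 genes tested in WT tumours (19.3% and 20.1% of all genes), with a median of -1.76. Cyp2b9 averaged 7.28 ± 2.44 in WT tumours, against a dim 1.59 ± 0.22 in normal liver (SD), and was at least 9.71-fold higher (limma adjusted p = 0.00115). Cyp2c54 and the organic anion transporter Slco1a4 fell, with log2 changes of -3.99 ± 1.35 and -3.48 ± 1.07 (SE; limma adjusted p = 0.0285 and 0.0176). Both calls were lost without any 1 normal liver (adjusted p at most 0.0822 and 0.0616), and that of Cyp2c54 also without WT tumour 20 (0.0505). In antibiotic-treated tumours the 12 genes had 1 higher and 1 lower call (8.78% and 7.01% of all genes) and a median of -0.41. In Tlr4-mutant tumours they had 1 higher and 0 lower calls by limma (12.1% and 10.5% of all genes) and a median of -1.33.

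Of 17 liver transcription factors tested, 1 rose and 5 fell in WT tumours (19.3% and 20.1% of all genes), with a median of -0.47. Nfe2l2, the regulator of antioxidant and detoxification genes, rose, with a log2 change of 1.11 ± 0.26 (SE; limma adjusted p = 0.00382). Ppara, the fatty acid receptor, fell, with a change of -1.29 ± 0.35 (limma adjusted p = 0.00862), and so did Cebpa, given above. The last list held 3 receptors that return luminal proteins to the endoplasmic reticulum, and Gusb. None of the 4 passed in WT tumours by limma, where 39.4% of all genes did. The change of Gusb is given above. The receptor Kdelr3 averaged 3.72 ± 1.03 in WT tumours, against 1.82 ± 0.085 in normal liver (SD), both below log2 4, so no size of change is given (limma adjusted p = 0.0944, and 0.0274 without antibiotic-treated tumour 29).

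Markers of other cell types were read because a lesion can hold cells other than hepatocytes. In WT tumours 1 of 5 macrophage (Cd68), 1 of 5 stellate cell and fibroblast (Reln), 1 of 1 adipocyte and 1 of 7 hepatocyte markers tested rose by limma. Of all genes 19.3% rose. Changes were positive for 3 of 5 macrophage and 3 of 5 stellate cell and fibroblast markers. Among the others, Clec4f and Lrat averaged 5.12 and 4.26 in WT tumours, against 6.23 and 4.95 in normal liver. Of 5 endothelial and 1 cholangiocyte markers tested none passed, where 39.4% of all genes did. The hepatocyte marker was Ahsg, with a log2 change of 0.58 ± 0.10 (SE; limma adjusted p = 0.000411). Changes were positive for 3 of 7 hepatocyte markers, with a median of -0.025. Cps1, among those with a negative change, averaged 12.20 in WT tumours, against 13.40 in normal liver. Cd68 was at least 1.30-fold higher and Reln rose, with a log2 change of 2.01 ± 0.54 (limma adjusted p = 0.00585 and 0.00884). Fabp4, listed as an adipocyte gene, rose, by 2.24 ± 0.57 (limma adjusted p = 0.00675), while the other 3 adipocyte markers on the array were below log2 4 on every array. All 5 lymphocyte markers were dim throughout. The endothelial list had a mean log2 level of 2.89 to 6.99 in WT tumours, against 5.24 to 6.17 in normal liver. Its larger changes were -1.48 ± 1.19 for Clec4g and 2.11 ± 1.05 for Lyve1 (limma adjusted p = 0.337 and 0.122), with that of Lyve1 passing without antibiotic-treated tumour 29 (0.0469). Antibiotic-treated tumour 30, whose Ces2e lay below normal liver, had the highest mean of the 4 cholangiocyte markers among all 18 arrays, 4.68. Normal livers read 2.83 to 2.85, and 2 of the 4 markers, Krt19 and Krt7, were below log2 4 on every array. Among antibiotic-treated tumours the highest signals were 8.10 for Epcam, which did not pass the filter, and 5.04 for Sox9. Those of Krt19 and Krt7 were 3.18 and 2.88. The mean of Afp and Gpc3 in that tumour, 8.73, was the lowest of the 15 tumours. Whether cell composition plays a part in the carboxylesterase values was not tested.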

How the data were processed

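Total RNA had been hybridised to 18 oligonucleotide arrays. The deposited values are log2 signals per probe set, made by the authors with GCRMA (background correction, normalization and summary), per the submitters' processing notes, whose version is not given in the sources used here. Groups and array numbers came from the sample titles, and 0 columns were left unmapped.

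The array carries 45101 probe sets. The platform annotation gives 1 symbol for 34945 of them, several for 932 and none for 9160, the remaining 64 being controls. Probe sets over log2 4 on at least 3 arrays were kept (15155 with a symbol). The kept probe set of highest mean represented each gene, which left 9364 genes, of which 311 are entries with several symbols, such as Ces3a/Ces3b. All 18 arrays entered 1 linear model of the 4 groups in limma 3.58.1 (R 4.3.3), two-sided, with Benjamini-Hochberg adjustment over the 9364 genes in each of 6 contrasts. A gene with an adjusted p under 0.05 was said to have risen or fallen. Where a group was below log2 4 on every array, the fold against log2 4 is given as a lower bound. Correlations used 100000 permutations with seed 1 (python 3.11.15, scipy 1.17.1), and figures matplotlib 3.10.9. The fit was tested on simulated data.

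The members, lists, tests and alternatives were chosen with earlier results of these data known. The named genes were the 10 members, from each other list at most 2 rises and 2 falls of smallest p among those past the threshold in WT tumours against normal liver (otherwise its 2 largest changes), and the 2 nearest genes per member. Alternatives changed the filter, the probe set rule, the normalization, the variance model, the threshold and the arrays included. Arrays have no read depth, and their number and the signal over background limit the precision.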

Additional observations from a re-analysis of the deposited data

Results flagged for a closer look

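Among 34 genes examined in 68 groups of arrays for an array far from the others of its group, 1 array stood out. Only WT and Tlr4-mutant tumours were examined, since the antibiotic-treated and normal liver groups, of 3 arrays each, were too small for the rule. Ces1c read 12.07 in Tlr4-mutant tumour 26, where the nearest of the other 4 Tlr4-mutant tumours read 12.53, and this gap was 0.716 of the group's whole range, just over the critical value of 0.710. Chance alone marks about 1 in 20 such groups. Without that array the Ces1c change in Tlr4-mutant tumours against normal liver was -0.55 and did not pass (limma adjusted p = 0.110).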

How the results depend on the processing

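In WT tumours against normal liver, 5 carboxylesterases were called. There were 2 at an adjusted p under 0.01 (Ces2a and Ces2e), 3 with WT tumours 17 and 19 both left out, and 2 to 7 on leaving out 1 array, with 2 without any 1 normal liver. With WT tumours 17 and 19 left out or only the compared groups fitted, Ces1d missed the threshold (adjusted p = 0.0761 and 0.0528). With only the compared groups fitted Ces1f passed (0.0490), and with each array centred Ces3a/Ces3b passed (0.0494). In Tlr4-mutant tumours against normal liver, 3 were called. There were 0 at an adjusted p under 0.01, 1 with no filter on low values, 1 without probe sets that may read several transcripts, 6 with only the compared groups fitted, 6 with WT tumours 17 and 19 both left out, and 0 to 5 on leaving out 1 array. In antibiotic-treated tumours against normal liver, 0 were called, 1 with only the compared groups fitted, 1 with WT tumours 17 and 19 both left out, and 0 to 1 on leaving out 1 array. The 3 tumour comparisons gave 0 calls under every alternative run. Of 28 pairs, 17 passed by Pearson's r, 13 with WT tumours 17 and 19 both left out and 17 after quantile normalization.

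Some differences changed sign. With WT tumours 17 and 19 both left out, Tlr4-mutant minus WT tumours was -0.65 for Ces1e, where all arrays gave 0.81, and -0.052 for Ces3a/Ces3b, and antibiotic-treated minus WT tumours was -0.24 for Ces1f. Ces1c in Tlr4-mutant minus WT tumours was 0.022 after centring each array, and Ces1d in antibiotic-treated tumours minus normal liver was -0.085 for the mean of its probe sets. Leaving out 1 array gave, for antibiotic-treated tumours minus normal liver, -0.053 to 0.12 for Ces1d and -0.51 to 0.32 for Ces1g. For Tlr4-mutant minus WT tumours it gave -0.13 to 0.095 for Ces1c, -0.28 to 0.17 for Ces1d, -0.98 to 0.59 for Ces1g, -0.22 to 0.098 for Ces2e and -0.29 to 0.65 for Ces3a/Ces3b. It gave -0.048 to 1.34 for Ces1f in antibiotic-treated minus WT tumours and -0.071 to 0.60 for Ces2a in Tlr4-mutant minus antibiotic-treated tumours. The cholangiocyte marker Sox9 averaged below log2 4 in WT tumours and normal liver, so its difference, -0.26 to 0.025, has no readable direction. None of these passed the threshold, and the cause of the sign changes was not tested. The stellate cell gene Reln lost its call in WT tumours without normal liver 1 (adjusted p = 0.0712). No paired analysis was possible because the groups share no replicate numbers.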
